A study of Homo sapiens with 4 samples.

Results

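The 10 Notch genes described here are the receptors NOTCH1, NOTCH2 and NOTCH3, the ligands JAG1 and JAG2, the DNA-binding factor RBPJ with its coactivators MAML1, MAML2 and KAT2B, and the target HES1. They were taken by symbol, as named parts of the pathway, and all 10 were found among the 22411 genes of the array, each with 1 transcript cluster, the probe group that stands for a gene. They were measured in U266, an established human multiple myeloma cell line, on Affymetrix Human Transcriptome Arrays. The control group was 2 samples of U266 cells given PBS, which the sample labels call untreated, and the trabectedin group was 2 samples of the same line given trabectedin, a DNA minor groove binder, all collected at 24 h. The sample labels state the dose as 2.5 nM, whereas the treatment protocol states 2.5 μM, and the labels call the replicates biological. By the methods, the cells came from 2 separate experiments, with no word on which replicate came from which. The paper describes U266 as P53-mutated, which both groups share. No further genetic change or other agent is given for either group, and all 4 samples come from 1 cell line.

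Values are RMA log2 values as deposited by the authors, in which 1 unit is a factor of 2. A fold change is trabectedin against control, and its standard error, 95% interval and p come from limma, which estimates the spread of each gene with help from all genes. With 2 arrays in each group the smallest two-sided p of an exact permutation test is 0.333, and the number of arrays limits the precision. The deposited values carry no detection calls. The median over all 70523 features lay between 5.19 and 5.37 on the 4 arrays. Of the markers of the labelled cell type, the plasma cell genes SDC1, TNFRSF17, IRF4, PRDM1 and XBP1 had values of 12.29 to 14.85, CD38 and SLAMF7 of 8.09 to 10.41 and MZB1 of 6.14 to 6.43. IRF4 (log2 fold change -0.80), XBP1 (-0.78) and SDC1 (-0.47) lay wholly below control with trabectedin, and CD38 (0.18) wholly above. The groups of TNFRSF17, PRDM1, SLAMF7 and MZB1 overlapped, and limma called none of these markers. The 9 measured markers of B cells, T and NK cells and monocytes lay between 3.73 and 6.13. The top of that range was set by NCAM1, at 5.92 to 6.13, and the next highest marker, CD3E, reached 6.00. Of stroma and endothelium, COL1A1 lay between 5.40 and 5.90 and PECAM1 between 8.39 and 9.13. In RNA from whole cultures, fewer cells that express a gene and less RNA per cell cannot be told apart.

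Notch receptors sit on the cell surface and are activated by Delta and Jagged ligands on neighbouring cells. Ligand binding exposes the receptor to the protease ADAM10 and then to gamma-secretase, which frees the intracellular domain. This domain enters the nucleus, binds RBPJ on DNA and, with a Mastermind-like protein (MAML) and histone acetyltransferases such as KAT2B, turns on targets of the HES and HEY families, which are transcriptional repressors. In myeloma, Notch signaling is known for contacts between plasma cells and bone marrow stroma.

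The promoter of HES1, the classical Notch target, is shown because it carries the letters that RBPJ recognizes. Over the 250 bases before the gene's start in RefSeq (GRCh38.p14, chr3:194135898-194136147, plus strand), capitals mark the letters TGGGAA, searched on both strands.
HES1: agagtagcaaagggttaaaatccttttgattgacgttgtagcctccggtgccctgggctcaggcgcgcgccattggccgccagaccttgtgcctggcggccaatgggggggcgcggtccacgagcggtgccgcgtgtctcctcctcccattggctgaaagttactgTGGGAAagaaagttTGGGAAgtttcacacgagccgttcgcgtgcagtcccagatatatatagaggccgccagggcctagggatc
The 2 matches, which are of letters only, began 84 and 70 bases before the start, both on the strand of the gene. In RefSeq windows of 250 bases before to 50 after a start, 24% of 35116 held at least 1 such match and 3.8% held 2 or more. None of the windows of NOTCH1, NOTCH2, NOTCH3, JAG1, JAG2, MAML1, MAML2 and KAT2B held one, whereas 1 of the 5 windows of RBPJ held 2. The letters CACGTG, an E-box, were in no window of the 10 genes and in 7.26% of all windows. The 3 members with the most negative fold changes are shown by the 120 bases before their starts, to place them beside HES1 (chr1:120069663-120069782, minus strand, chr11:96343196-96343315, minus strand, and chr3:20040326-20040445, plus strand).
NOTCH2: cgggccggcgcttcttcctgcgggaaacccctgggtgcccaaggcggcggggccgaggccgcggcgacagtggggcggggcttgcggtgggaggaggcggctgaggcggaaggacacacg
MAML2: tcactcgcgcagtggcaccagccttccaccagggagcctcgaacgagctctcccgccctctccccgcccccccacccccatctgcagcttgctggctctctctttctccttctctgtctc
KAT2B: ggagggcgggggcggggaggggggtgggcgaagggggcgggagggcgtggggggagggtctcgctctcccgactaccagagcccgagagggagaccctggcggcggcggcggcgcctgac
Over the 250 bases before the start, G and C made up 72.8% in NOTCH2, 63.6% in MAML2 and 80.8% in KAT2B, against 59.2% in HES1. Binding of RBPJ was not measured.

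Of the 10 genes, NOTCH2, MAML2 and KAT2B were lower with trabectedin by at least 1.5-fold with no overlap between groups, and none was higher. This is 3 of 10, against 4.52% of all genes lower and 2.35% higher by the same criterion. RBPJ was the only other member whose groups did not overlap, so that 4 of 10 lay wholly below control and 0 of 10 wholly above, against 13.5% and 35.8% of all genes. At an adjusted p under 0.05, limma called none of the 10 and 0% of all genes, while NOTCH2, RBPJ, MAML2 and KAT2B had an unadjusted p under 0.05, as did 14% of all genes. The median log2 fold change was 0.01 over the 10 members and 0.10 over all genes. Without trabectedin replicate 1, HES1 was higher by at least 1.5-fold without overlap, and without control replicate 2 both JAG1 and HES1 were. When ribosomal protein genes set the scale, the median of all genes moved to -0.19 and the fold changes of NOTCH3, JAG1, JAG2, MAML1 and HES1 turned negative.

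**Figure D1:**
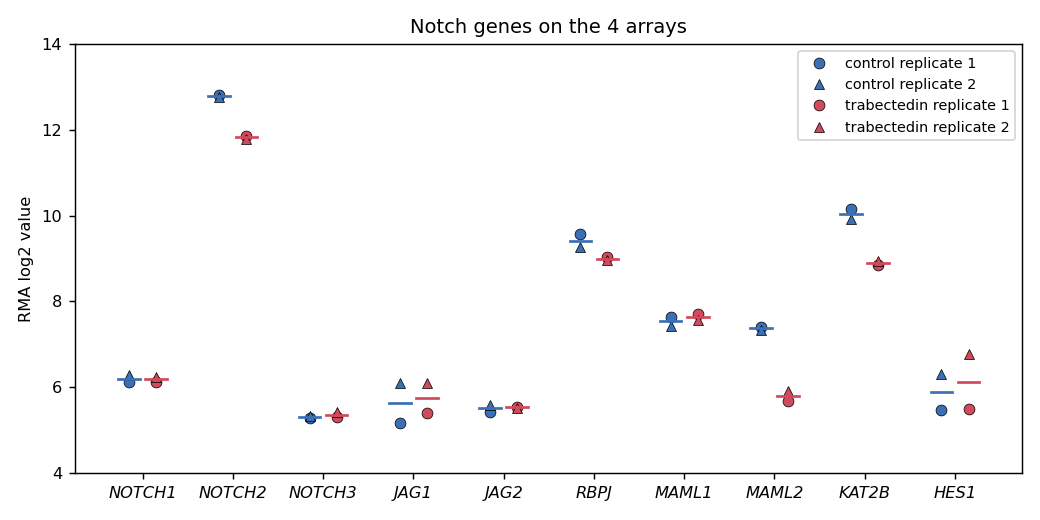
RMA log2 value (vertical axis) of each of the 10 Notch genes (horizontal axis) on each array, with circles for replicate 1, triangles for replicate 2 and bars for group means of control (blue) and trabectedin (red). Both trabectedin arrays lie below both control arrays for NOTCH2, RBPJ, MAML2 and KAT2B, and the replicates of JAG1 and HES1 lie far apart in both groups.

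Of the 3 receptors among the members, NOTCH2 was the one whose groups were separate. NOTCH2 had values of 12.82 and 12.77 in control replicates 1 and 2 and of 11.86 and 11.79 in trabectedin replicates 1 and 2. The groups did not overlap, and the replicates of a group lay far closer to each other than to the other group. The log2 fold change was -0.97 (standard error 0.11, 95% interval -1.25 to -0.69, limma adjusted p = 0.0762), which is 1.96-fold lower and ranked 480 from the lowest of 22411 genes. It lay between -1.01 and -0.93 when each array was left out in turn. NOTCH2NL, a symbol for human-specific partial copies of NOTCH2 that was looked up after the values were seen, had 14.13 and 13.52 in control and 13.81 and 13.15 with trabectedin, and its log2 fold change was -0.34 (standard error 0.31, adjusted p = 0.648). How the probes of these near-identical genes share signal is not given in the sources used here.

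NOTCH1, the receptor often mutated in T cell leukemia, had values of 6.11 and 6.28 in control and 6.13 and 6.23 with trabectedin. Its log2 fold change was -0.01 (standard error 0.12, 95% interval -0.33 to 0.31, adjusted p = 0.97). NOTCH3, a receptor of vascular smooth muscle, had 5.29 and 5.32 in control and 5.30 and 5.42 with trabectedin. Its log2 fold change was 0.06 (standard error 0.11, 95% interval -0.23 to 0.35, adjusted p = 0.818). The groups overlapped for both receptors, and the intervals of their array values hold no change as large as that of NOTCH2. NOTCH3 lay within the range of the B, T and NK and monocyte markers and NOTCH1 at or just above its top, which NCAM1 set. At such levels a lower value may not show, so these intervals do not exclude a change in RNA.

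The ligands overlapped between groups as well. JAG1 had values of 5.15 and 6.10 in control and 5.40 and 6.11 with trabectedin. Replicate 2 was the higher one in both groups, by 0.95 in control and 0.70 with trabectedin, differences larger than those of 98.1% and 95.7% of all genes. The log2 fold change was 0.13 (standard error 0.40, 95% interval -0.92 to 1.17, adjusted p = 0.897), and it ran from -0.35 without control replicate 1 to 0.60 without control replicate 2. It was -0.23 without trabectedin replicate 2. With 1 array left out the replicate numbers are unbalanced, so these values carry part of the difference between replicates. Within each replicate number JAG1 was the higher with trabectedin, by little in replicate 2. With the replicate number as a block, its standard error was 0.11 (limma adjusted p = 0.53). JAG2, a ligand found overexpressed in myeloma, had 5.42 and 5.59 in control and 5.54 and 5.52 with trabectedin. Its log2 fold change was 0.02 (standard error 0.12, 95% interval -0.29 to 0.33, adjusted p = 0.94), and -0.065 without control replicate 1. All values of both ligands lay within the range of the markers of other blood cells. JAG1 in replicate 2 of both groups did so only through NCAM1, as the next highest marker, CD3E, reached 6.00.

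In the nuclear complex, the coactivators differed from one another. MAML2, a Mastermind-like coactivator that is a known fusion partner in salivary gland tumors, had values of 7.40 and 7.34 in control and of 5.68 and 5.91 with trabectedin. Every trabectedin array was below every control array by far more than the arrays of a group differed. The log2 fold change was -1.57 (standard error 0.13, 95% interval -1.91 to -1.23, adjusted p = 0.0762), which is 2.98-fold lower and ranked 186 from the lowest. Both trabectedin values lay within the range of the markers of other blood cells, so that the fold is that of the array values and its size against a background was not tested. Left out in turn, the arrays gave -1.69 to -1.46, and without trabectedin replicate 2 limma called MAML2 (adjusted p = 0.031, against 0.442 at the highest with another array left out). The 1 trabectedin array is then assumed to vary like the control arrays. MAML1, the founding Mastermind-like coactivator, had 7.64 and 7.42 in control and 7.70 and 7.57 with trabectedin. Its groups overlapped, with a log2 fold change of 0.10 (standard error 0.13, 95% interval -0.25 to 0.45, adjusted p = 0.749).

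KAT2B, the acetyltransferase also called PCAF, had values of 10.15 and 9.93 in control and of 8.84 and 8.94 with trabectedin. The groups did not overlap, and the log2 fold change was -1.15 (standard error 0.13, 95% interval -1.49 to -0.81, adjusted p = 0.0762), which is 2.21-fold lower. RBPJ, the factor that brings the complex to DNA, had 9.56 and 9.27 in control and 9.03 and 8.96 with trabectedin. Its groups were close but separate, with a log2 fold change of -0.42 (standard error 0.14, 95% interval -0.79 to -0.05, adjusted p = 0.308). Without control replicate 1, RBPJ was at -0.28.

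HES1, the repressor through which much of Notch output runs, showed a difference between replicates larger than that between groups. It had values of 5.47 and 6.30 in control and of 5.49 and 6.77 with trabectedin. Its replicate 1 values lay within the range of the markers of other blood cells in both groups. Replicate 2 was higher by 0.84 in control and by 1.28 with trabectedin, more than in 97.3% and 99.5% of all genes. The log2 fold change was 0.24 (standard error 0.51, 95% interval -1.09 to 1.57, adjusted p = 0.838). It was 0.88 without trabectedin replicate 1, 0.66 without control replicate 2, -0.18 without control replicate 1 and -0.40 without trabectedin replicate 2, so that its direction turned with single arrays. Leaving out 1 array leaves the replicate numbers unbalanced, so these values carry part of the difference between replicates. Within each replicate number HES1 was the higher with trabectedin, by little in replicate 1. With the replicate number as a block, its standard error was 0.14 (limma adjusted p = 0.343).

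**Figure D2:**
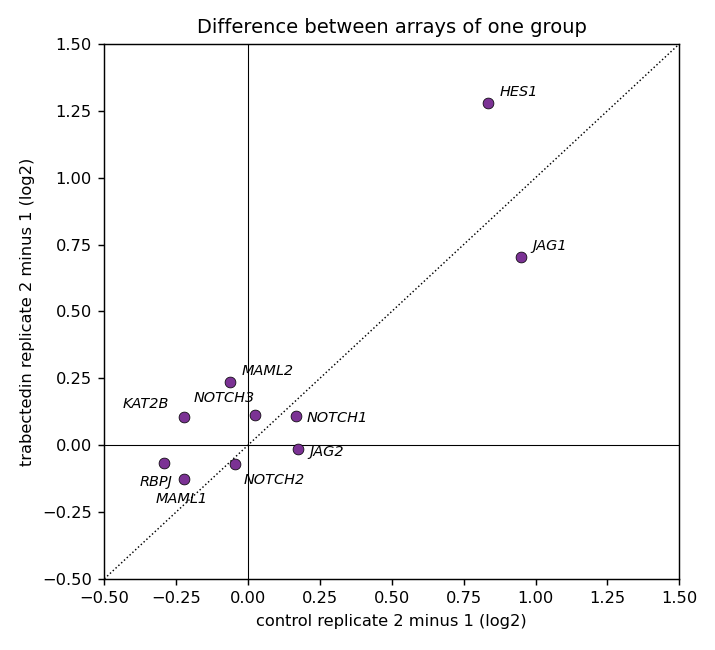
Log2 difference of replicate 2 minus replicate 1 in control (horizontal axis) and with trabectedin (vertical axis) for the 10 Notch genes, 1 point a gene, with a dotted line of equal differences. HES1 (0.84 and 1.28) and JAG1 (0.95 and 0.70) stand at the upper right, and the other 8 genes lie closer to 0 in both groups.

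Related genes were compared with each other as differences within an array, which asks whether their changes were unequal. For MAML2 minus MAML1, the within-array log2 difference was -0.24 and -0.08 in control and -2.02 and -1.66 with trabectedin. The difference of their log2 fold changes was -1.67 (limma standard error 0.17, 95% interval -2.11 to -1.24). For KAT2B minus its paralog KAT2A, the difference of fold changes was -1.46 (standard error 0.23, 95% interval -2.07 to -0.85), and KAT2A itself was at 0.31. For NOTCH2 minus NOTCH1 it was -0.96 (standard error 0.14, 95% interval -1.32 to -0.60). NOTCH1 lay at or just above the top of the range of the markers of other blood cells. NCAM1 set that top, and a lower value may not show there. In these 3 pairs the within-array differences of the groups did not overlap. For NOTCH3 minus NOTCH1 it was 0.07 (standard error 0.11, 95% interval -0.23 to 0.36) and for JAG2 minus JAG1 -0.10 (standard error 0.36, 95% interval -1.05 to 0.84), both with overlapping groups. Over these 5 pairs the two-sided exact permutation p was 0.333, the smallest possible, in the first 3 and 0.667 in the last 2, or 0.556 and 0.667 adjusted over the 5 pairs.

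Of 65 other genes of the pathway, 58 were measured, and 6 of them were lower by at least 1.5-fold without overlap and 0 higher, against 4.52% and 2.35% of all genes. Limma called none of the 58 at an adjusted p under 0.05, and 10 had an unadjusted p under 0.05, where 14% of all genes did. Their median log2 fold change was 0.09, against 0.10 in all genes. Genes of receptor turnover held 3 of the 6. That role had 10 measured genes with a median log2 fold change of 0.14. Its highest value was 0.61 in DTX3L (standard error 0.87), whose groups overlapped. NUMB, which directs Notch receptors into endocytosis, had values of 7.91 and 7.90 in control and 5.95 and 6.56 with trabectedin. Its log2 fold change was -1.65 (standard error 0.22, adjusted p = 0.0813). Without trabectedin replicate 2 it was at -1.95, again with 1 trabectedin array. That array, replicate 1 at 5.95, lay within the range of the markers of other blood cells. The size of the fold against a background was not tested. AAK1, a kinase of clathrin adaptors that binds NUMB, had 8.44 and 8.81 in control and 7.20 and 7.67 with trabectedin, so its log2 fold change was -1.19 (standard error 0.22, adjusted p = 0.127). FBXW7, the ubiquitin ligase subunit that marks the intracellular domain for degradation, had 9.54 and 9.67 in control and 8.55 and 8.70 with trabectedin, so its log2 fold change was -0.98 (standard error 0.12, adjusted p = 0.0778). In all 3 the groups were separate.

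The other 3 lay elsewhere in the pathway. ADAM10, the protease of the first receptor cut, had 12.30 and 12.05 in control and 11.25 and 11.41 with trabectedin, and its log2 fold change was -0.84 (standard error 0.14, adjusted p = 0.113). The 6 other measured genes of receptor shedding and gamma-secretase ran up to 0.33 in NCSTN, the substrate receptor of gamma-secretase. MIB1, a ubiquitin ligase that drives ligand endocytosis, was at -0.65 (standard error 0.15, adjusted p = 0.173), and MAML3, the remaining Mastermind-like coactivator, at -0.63 (standard error 0.14, adjusted p = 0.163). All values of MAML3 lay within the range of the markers of other blood cells, in control replicate 1 (6.13) only through NCAM1. Without genes of low level the count of 6 was 5. MAML3 was at -0.53 without control replicate 1 or trabectedin replicate 1, and MIB1 at -0.56 without control replicate 2 and -0.51 without trabectedin replicate 1, all short of 1.5-fold.

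In the remaining roles no gene passed 1.5-fold without overlap. NOTCH4, the remaining receptor, had 5.49 and 5.58 in control and 5.61 and 5.71 with trabectedin, a small difference of 0.12 with separate groups (standard error 0.11, adjusted p = 0.651). The largest ligand value was 0.32 in DLL4, a Delta-like ligand of endothelium (standard error 0.37). The largest value was 0.38 in POGLUT1, which glucosylates the receptor (standard error 0.25), among genes of receptor maturation, and 0.43 in RITA1, which exports RBPJ from the nucleus (standard error 0.11, adjusted p = 0.199), among corepressors. Among 11 other targets the median was 0.21 and 0 of 11 were called. Their groups lay wholly above control in 4 and wholly below in 1, against 35.8% and 13.5% of all genes. The lower one, named here for that, was CCND1, with 15.84 and 15.49 in control and 15.40 and 15.08 with trabectedin. Its log2 fold change was -0.43 (standard error 0.19, adjusted p = 0.402). These targets span less than 20 kb, a class in which the median of all genes was 0.14. HEY2, a repressor of the HES and HEY type, had the largest value, 0.60 (standard error 0.31, adjusted p = 0.459), with 6.63 and 7.22 in control and 7.20 and 7.86 with trabectedin, so that the groups overlapped.

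**Figure D3:**
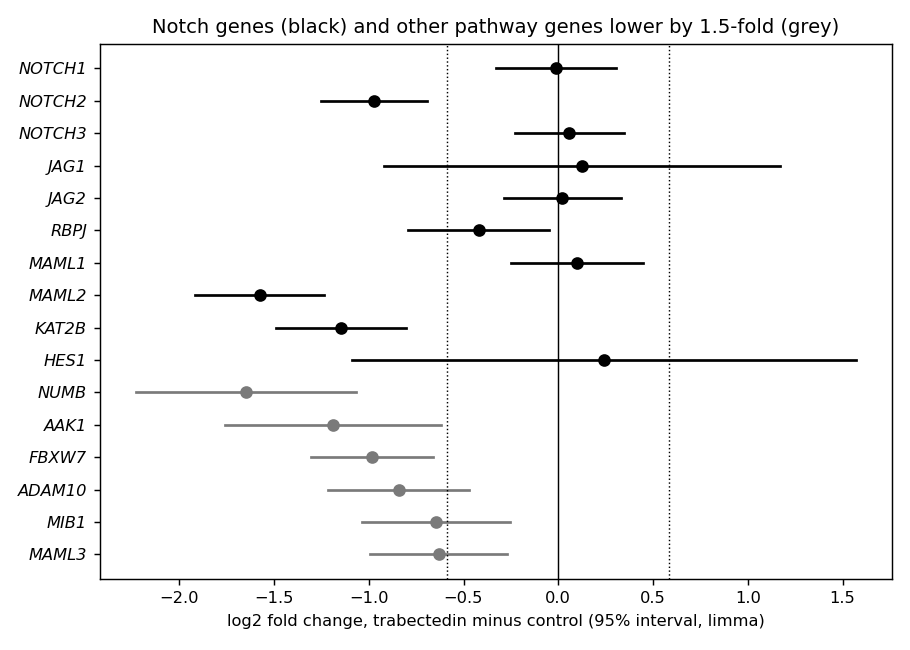
Log2 fold change of trabectedin minus control with its 95% interval from limma (horizontal axis) for the 10 Notch genes (black) and the 6 other pathway genes lower by at least 1.5-fold without overlap (grey), with dotted lines at 1.5-fold. The intervals of NOTCH2, MAML2 and KAT2B lie wholly below -0.59, as do those of NUMB, AAK1 and FBXW7, whereas those of JAG1 and HES1 span 0 widely.

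Gene length moved with these values. By RefSeq on GRCh38.p14, MAML2 spans 367 kb, RBPJ 330 kb, NOTCH2 158 kb and KAT2B 114 kb, whereas the members whose groups overlapped span between 2.58 kb in HES1 and 51.6 kb in NOTCH1. Of the 68 measured pathway genes, members included, 9 of the 17 longer than 100 kb and 0 of the 51 others were lower by at least 1.5-fold without overlap. The same held across the array, where the share of genes lower by this criterion was 0.583% under 20 kb, 0.613% from 20 to 50 kb, 3.38% from 50 to 100 kb, 21.1% from 100 to 200 kb and 31.9% over 200 kb. Between 100 and 200 kb, 6 of 13 pathway genes were lower, and over 200 kb 3 of 4. RBPJ, in the longest class, was not among them. MAML1 spans 44.5 kb and KAT2A 8.26 kb, so that in both of these pairs the longer paralog was the lower one. The part of gene length in these results was not tested.

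**Figure D4:**
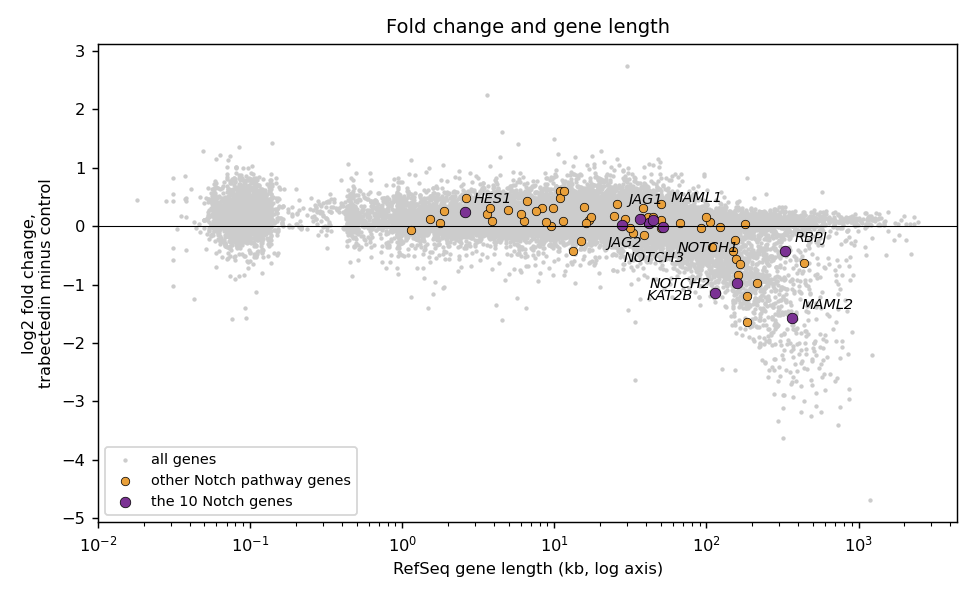
Log2 fold change of trabectedin minus control (vertical axis) against RefSeq gene length in kb (horizontal axis, log scale) for all genes (grey), the other Notch pathway genes (orange) and the 10 Notch genes (purple, named). MAML2, NOTCH2 and KAT2B lie among the long genes with negative values, and the members of at most 51.6 kb lie near 0.

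The genes with the pattern nearest to that of MAML2 over the 4 arrays, by Euclidean distance after centring each gene, were PIP4K2A, a phosphoinositide kinase (distance 0.063, log2 fold change -1.57), ATF6, a sensor of endoplasmic reticulum stress (0.095, -1.58), and SGMS1, a sphingomyelin synthase (0.098, -1.50). They span 180 kb, 198 kb and 320 kb. Those nearest to HES1 were RNA5SP431, a ribosomal RNA pseudogene (0.151), SCARNA11, a small Cajal body RNA (0.156), and IER2, an immediate early gene (0.16), with log2 fold changes of 0.19, 0.18 and 0.18. IER2 had 6.06 and 6.87 in control and 6.11 and 7.18 with trabectedin, again higher in replicate 2 of both groups. With 4 arrays, such nearness describes the arrays only.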

How the data were processed

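Gene expression was measured in 2 control and 2 trabectedin samples of U266 cells. The authors scanned the arrays and deposited log2 values that the RMA method of Affymetrix Expression Console gave. Its version and annotation: not given in the sources used here. Between 843 and 899 features an array had values above 16, and what rescaling gave them is not known. Of 70523 features, 23781 had 1 symbol in the platform annotation, 1543 several and 45199 none. Symbols were updated through RefSeq, in which 23777 had a match, and 22411 genes were kept, each by the cluster of highest mean over the 4 arrays. Other clusters were not used, and 7 genes of the pathway list are not analysed here.

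The comparison used limma (version 3.58.1, under R 4.3.3, with lmFit and eBayes and no block) over all genes with Benjamini-Hochberg adjustment. The fit was tested on simulated data with independent arrays and 1 spread for all genes. The deposited values had unequal spreads and replicate differences that correlated between groups, which that test does not cover. Members, the list of 65 other pathway genes, written from textbook knowledge, and markers were chosen with earlier results of these data known. Named genes were the members, the other pathway genes of at least 1.5-fold without overlap, the one with the largest absolute fold change in each role, and the 3 genes nearest to MAML2 and HES1. Promoter sequences and lengths came from RefSeq on GRCh38.p14, and RBPJ has 5 promoter windows there. As alternatives, each array was left out, the replicate number was fitted as a block, genes of low level were dropped, the values were quantile normalized again or scaled to 50 ribosomal protein genes, clusters of a gene were averaged, limma was given a trend, the methods' t-test was run, and the threshold was set to 2-fold. The labels call the replicates biological.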

Additional observations from a re-analysis of the deposited data

How the results depend on the processing

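NOTCH2, MAML2, KAT2B and RBPJ kept their direction under every alternative run, and 3 or 4 members were lower by at least 1.5-fold in each, or 2 at a 2-fold threshold. Of 97 alternative values of the 10 members, 82 kept their direction. The block, the trend, averaged clusters and dropped low genes could not change the fold change of a member they kept. Agreement in those runs was fixed in advance. A fit that took the replicate number as a block gave 499 calls higher and 893 lower, among them NOTCH2 (adjusted p = 0.0194), MAML2 (0.0174) and KAT2B (0.0194), whereas RBPJ was at 0.0949. It also called NUMB, AAK1, FBXW7, ADAM10, MIB1, CREBBP (a coactivator named here for this call) and, higher, HEY2 (0.0389), at 0.0185 to 0.0435. Over all genes the difference of replicate 2 minus 1 in control correlated with that in trabectedin at 0.559, and the methods speak of 2 experiments, but no source used here ties the numbers to them. Scaling to ribosomal protein genes moved the median of all genes from 0.0971 to -0.19, gave 9 genes higher and 830 lower and 10 other pathway genes lower by 1.5-fold, and turned NOTCH3 to -0.23, JAG1 to -0.16, JAG2 to -0.27, MAML1 to -0.19 and HES1 to -0.045. Limma then gave all genes the same variance and called NOTCH2 (adjusted p = 0.00282), MAML2 (3.48e-07), KAT2B (0.000303), NUMB, AAK1, FBXW7 and ADAM10. With quantile normalization repeated, NOTCH3 was at -0.031, JAG2 at -0.058 and 1 other pathway gene higher. At 2-fold 2 other pathway genes were lower. The methods' t-test had 1400 genes higher and 992 lower at an unadjusted 0.05 and none once adjusted, against 1635 and 1501 for limma at an unadjusted p under 0.05.

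With each array left out, limma called 0 to 5 genes higher and 0 to 223 lower, the most without trabectedin replicate 2. Members higher by 1.5-fold numbered 0 to 2, and other pathway genes higher 0 to 7 and lower 5 to 7. The log2 fold change ran from -0.094 to 0.072 for NOTCH1, -0.35 to 0.60 for JAG1, -0.065 to 0.11 for JAG2, -0.012 to 0.21 for MAML1 and -0.40 to 0.88 for HES1. The difference NOTCH3 minus NOTCH1 ran from -0.001 to 0.14, JAG2 minus JAG1 from -0.49 to 0.28, NOTCH2 minus NOTCH1 from -1.06 to -0.85, MAML2 minus MAML1 from -1.85 to -1.49 and KAT2B minus KAT2A from -1.74 to -1.18. Leaving out 1 array also leaves the replicate numbers unbalanced between groups, and the cause of these turns was not tested. NOTCH3, JAG1, JAG2, MAML3 and, in replicate 1, HES1 lay at the level of the markers of other blood cells. With trabectedin so did MAML2 and, in replicate 1, NUMB. JAG1 in replicate 2 and MAML3 in control replicate 1 did so only through NCAM1. The background within that range was not measured, so the size of a change there cannot be read as that of the RNA.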
